A study of Mus musculus with 96 samples.

Results

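Irradiation of chow-fed mice changed the RNA of a small set of genes in muscle satellite cells, and most of the genes that changed were lower. The description below covers every gene in the authors' deposited table for irradiated against control satellite cells on chow, 322 genes of 12371 tested. That table lists each gene with an adjusted p under 0.1, 2.6% of the genes tested, with 125 higher (1.01%) and 197 lower (1.59%). Of the 322 genes, 155 passed an adjusted p of 0.05 and are called changed here, 1.25% of the genes tested. On the higher side 48 genes rose, 0.388% of those tested, and on the lower side 107 fell, 0.865% of those tested. The other 167 genes had adjusted p-values between 0.05 and 0.1, 77 of them higher and 90 lower, and they are given by their values alone. All mice were C57Bl/6. Both groups ate chow, and 6 libraries came from irradiated mice and 6 from untreated mice. A further pair of groups, irradiated and untreated mice on a high fat diet, supplied the values that are set beside those on chow. The series holds 96 samples in all, from RNA sequencing and DNA methylation assays of satellite cells and of the stromal vascular fraction of fat. The radiation dose, the body region exposed, the interval before collection, the sex and the age of the mice, and how the satellite cells were isolated or cultured are not stated in the sources used for this account. The labels do not say whether each library came from its own mouse, so the p-values measure the spread between libraries, which may be technical.

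Satellite cells are the resident stem cells of skeletal muscle. They lie quiescent against the fibre, enter the cell cycle after injury, and give rise to myoblasts that express Myod1 and Myog, fuse and build contractile protein. Several of the genes below belong to the integrated stress response, in which kinases phosphorylate the initiation factor eIF2 and the transcription factor ATF4 is then translated. ATF4 and its partners switch on genes that take up, make and charge amino acids, together with the secreted hormones Fgf21 and Gdf15. Ionizing radiation breaks DNA and is best known for activating the kinase ATM and the transcription factor p53.

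For each gene the authors' deposited table holds a likelihood ratio, p-values, a log2 fold change and the mean abundance on a log2 CPM scale, where CPM scales the count of a gene to the total of its library, and no value for a single library. The level in each library therefore cannot be shown, and whether the groups overlap is not known. An approximate standard error was computed as the size of the log2 fold change divided by the square root of the likelihood ratio. Among the 155 called genes the size of the change ran from 0.42 to 3.43 on the log2 scale with a median of 0.95, which is 1.93-fold. The median size was 1.13 (2.19-fold) for the 48 genes that rose and 0.92 (1.89-fold) for the 107 that fell. Median abundance was 3.12 log2 CPM for the genes that rose and 4.90 for those that fell. At 6 log2 CPM and over, 5 called genes rose and 39 fell, while between 1 and 4 log2 CPM 27 rose and 29 fell. The smallest change that was called depended on abundance. Under 1 log2 CPM it was 1.75 for genes that rose and 1.19 for genes that fell, and at 6 log2 CPM and over it was 0.48 and 0.42. Library totals are not part of the table, so the depth behind each value is unknown.

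**Figure D1:**
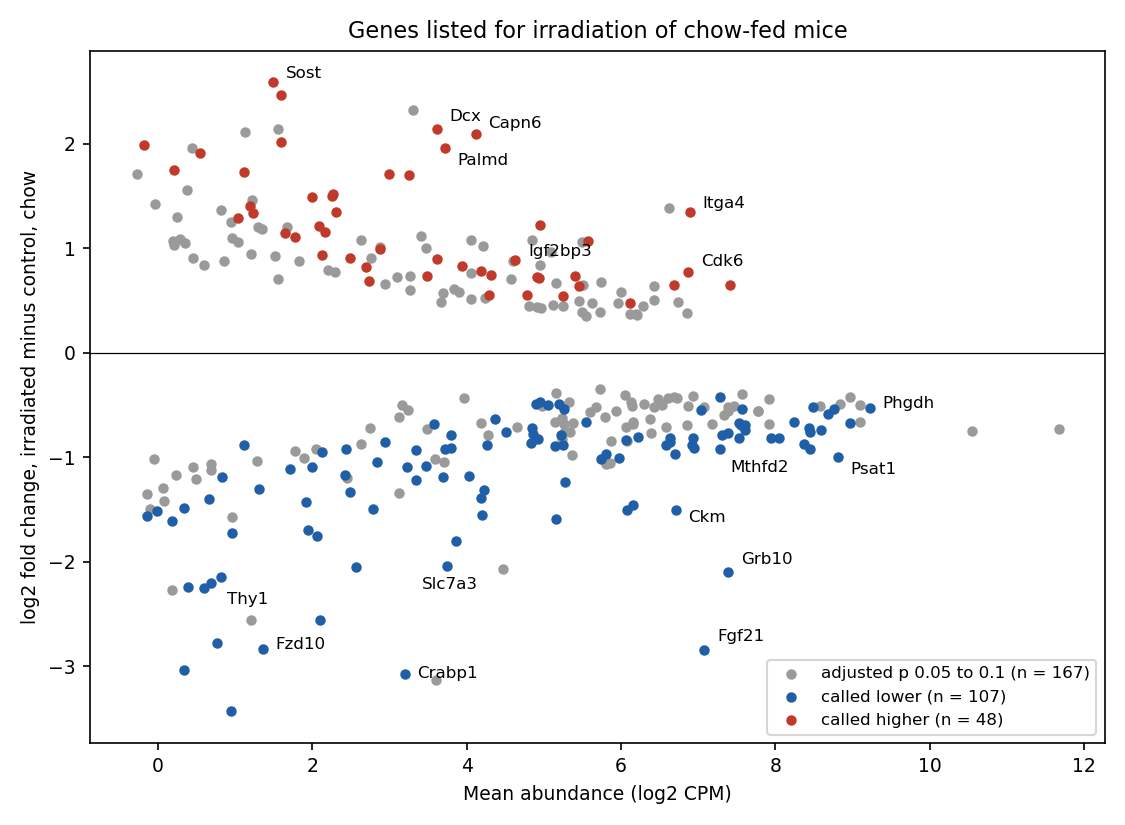
Each of the 322 listed genes by its mean abundance (log2 CPM, horizontal) and its log2 fold change on chow, irradiated minus control (vertical), with called genes in red or blue and genes at an adjusted p of 0.05 to 0.1 in grey. At 6 log2 CPM and over 39 blue and 5 red points are seen, and Fgf21 and Grb10 lie well below the other genes of like abundance.

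Genes that make, import and charge amino acids were among those that fell. All gene lists used here were chosen with earlier results of these data known, so their shares are descriptions and none was tested. Of the 106 genes on lists for the integrated stress response, amino acid synthesis, transfer RNA synthetases and amino acid transporters, 15 fell and 0 rose, 14.2% of the lists beside 0.865% of all tested genes that fell, with a median log2 fold change of -0.87. Because these lists share a regulator in textbook biology, the promoters of the called members were searched for the C/EBP-ATF response element, the composite site to which ATF4 dimers bind. The letters searched were TGATGNAA on both strands, in the window from 250 bases before to 50 bases after each start in RefSeq promoters of build GRCm38.p6. Promoters were held for 11 of the 15 genes, and 5 of the 11 contained the letters, 45.5%. Over all 27025 genes with a promoter, 1219 contained them, 4.51%. The share was 12% among the 83 called lower genes with a promoter, which include these 5, and 5.41% among the 37 called higher ones. Psat1, Mthfd2, Gpt2, Phgdh, Atf5 and Slc3a2 had no match in this window. The lists hold genes known as targets of ATF4, so a high share was built into their choice and no test was made. A match is a description of letters and not a binding site. The matches are printed because they lie at genes whose RNA fell, with the 8 letters of the element in capitals on the strand of the gene, 5′ to 3′. They span chr7:45615611-45615640 (minus strand) for Fgf21, chr6:7693214-7693243 (minus) for Asns, chr6:55037960-55037989 (plus) for Gars, chr8:94386306-94386335 (plus) for Herpud1 and chr11:120643833-120643862 (minus) for Pycr1.
Fgf21: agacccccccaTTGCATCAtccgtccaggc
Asns: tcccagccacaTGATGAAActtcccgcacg
Gars: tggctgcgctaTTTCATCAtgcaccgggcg
Herpud1: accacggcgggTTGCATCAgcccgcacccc
Pycr1: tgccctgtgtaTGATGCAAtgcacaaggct
The element begins 139, 23, 30, 112 and 103 bases before the start, in the same order. None of the 5 matches overlapped an antioxidant response element or an E-box by the searches described below.

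Fgf21 was the largest change among these genes. This hormone is released under amino acid and mitochondrial stress and acts on fat, liver and brain. It fell by 2.84 on the log2 scale (approximate SE 0.52), a 7.18-fold drop, in the authors' deposited table (edgeR likelihood ratio test, adjusted p = 0.000313). Within the stress response list of 30 genes, 3 fell and 0 rose, 10% of the list. Atf5, a transcription factor translated under the same stress, stood at -0.85 (approximate SE 0.23, adjusted p = 0.0257) in the authors' deposited table, and Herpud1, which serves the disposal of misfolded proteins at the endoplasmic reticulum, at -0.77 (approximate SE 0.18, adjusted p = 0.0122). Another 3 members were listed without being called, and each value in the authors' deposited table was below 0. Gdf15, a stress hormone that also answers to p53, was at -1.34 with an adjusted p of 0.0512, the lipoprotein receptor Vldlr was at -1.06 with 0.0689, and the glycoprotein hormone Stc2 was at -0.84 with 0.0632. Atf4 itself and Ddit3 were not in the chow table.

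The list of serine, folate and non-essential amino acid synthesis had the highest share of called genes. Of its 32 members 7 were listed and all 7 fell, 21.9% of the list. Serine is made from a glycolytic intermediate by Phgdh, Psat1 and Psph in order. Psat1, the transaminase, fell by 1.0 on the log2 scale (approximate SE 0.20, adjusted p = 0.00117) and Phgdh, the entry enzyme, by 0.53 (approximate SE 0.15, adjusted p = 0.0408) in the authors' deposited table. Mthfd2 and Aldh1l2, which use the serine-derived carbon unit on folate inside mitochondria, stood at -0.92 (approximate SE 0.19, adjusted p = 0.000865) and -1.01 (approximate SE 0.25, adjusted p = 0.0165) in the authors' deposited table. The remaining enzymes each make a non-essential amino acid. In the authors' deposited table Asns, asparagine synthetase, was at -0.87 (adjusted p = 0.0046), Pycr1, the last step to proline, at -0.88 (adjusted p = 0.0214), and Gpt2, the mitochondrial alanine transaminase, at -0.69 (adjusted p = 0.0127). The 7 changes thus lay between -1.01 and -0.53, and their approximate standard errors lay between 0.15 and 0.25.

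Genes that import amino acids or load them onto transfer RNA fell as well. Of 21 amino acid transporters 3 fell and 0 rose, 14.3% of the list. Slc7a3, a carrier of arginine and lysine, fell by 2.04 (approximate SE 0.39, adjusted p = 0.000703) in the authors' deposited table. Slc7a5 and Slc3a2 form the light and heavy chain of the heterodimer that imports leucine, and they stood at -0.92 (approximate SE 0.23, adjusted p = 0.0165) and -0.81 (approximate SE 0.22, adjusted p = 0.0257) by the same deposited table. The chains thus differed by less than either error. Of 23 genes for transfer RNA synthetases and their complex, 2 fell, 8.7% of the list. Gars, for glycine, was at -0.54 (adjusted p = 0.0342) and Cars, for cysteine, at -0.42 (adjusted p = 0.0257). Sars at -0.44 (adjusted p = 0.0809) and Nars at -0.42 (adjusted p = 0.0536) were of the same size in the authors' deposited table but were not called. Of the 15 genes of the 4 lists, 5 also passed an adjusted p of 0.01, and 4 passed a Bonferroni adjustment over the 12371 genes.

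**Figure D2:**
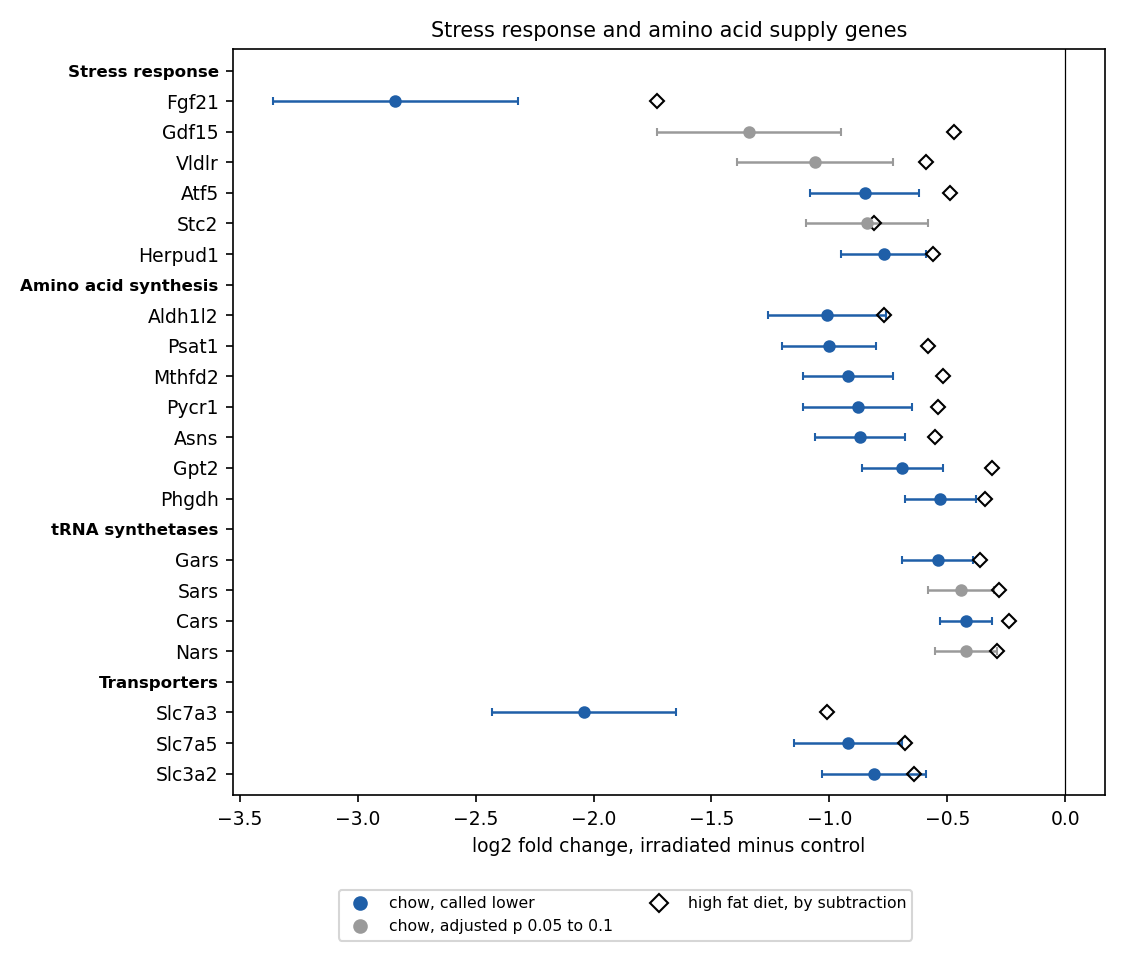
Listed genes of the 4 stress and amino acid lists, with the log2 fold change on chow (circles, bars of 1 approximate standard error, blue where called lower and grey where the adjusted p was 0.05 to 0.1) and on the high fat diet by subtraction (diamonds). All 20 circles lie left of 0, from -2.84 for Fgf21 to -0.42 for Cars and Nars.

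Insulin signalling and imprinted genes met in Grb10. This adaptor binds the insulin and IGF1 receptors and restrains them, and in most mouse tissues it is expressed from the maternal allele. Among 53 insulin and glucose genes 4 fell and 0 rose, 7.55% of the list beside 0.865% of all tested genes that fell. Grb10 fell 4.29-fold, at -2.10 (approximate SE 0.42, adjusted p = 0.000708) in the authors' deposited table. The others changed by less than Grb10 did. Akt2, the insulin-responsive isoform of the kinase, was at -0.58 (approximate SE 0.16), the muscle glycogen synthase Gys1 at -0.54 (approximate SE 0.15) and the phosphofructokinase Pfkp at -0.49 (approximate SE 0.14) in the authors' deposited table. Foxo1, the transcription factor that Akt excludes from the nucleus, had a value of 0.45 at an adjusted p of 0.0838. Of 32 imprinted genes 2 rose and 1 fell, 9.38% of the list beside 1.25% of all tested genes called. Plagl1, a zinc finger gene expressed from the paternal allele, rose by 1.22 (approximate SE 0.30, adjusted p = 0.0152) and Dlk1, a transmembrane relative of Notch ligands, by 1.91 (approximate SE 0.46, adjusted p = 0.0133) in the authors' deposited table. Ddc, the neighbour of Grb10 on chromosome 11 and imprinted in heart, was at -0.75 with an adjusted p of 0.0574.

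Genes of muscle differentiation were lower where they were called. On the lists for satellite cells and myoblasts and for the sarcomere and mature muscle, 7 genes fell and 0 rose, with a median of -1.02. Of 39 satellite cell and myoblast genes 2 fell, 5.13% of the list beside 0.865% of all tested genes that fell. Gm7325, whose current name is Mymx and whose micropeptide drives myoblast fusion, was at -0.97 (approximate SE 0.27, adjusted p = 0.0397), and Chrng, the fetal subunit of the muscle acetylcholine receptor, at -0.67 (approximate SE 0.17, adjusted p = 0.017) in the authors' deposited table. The muscle cadherin Cdh15 had a value of -0.50 at an adjusted p of 0.0933. Pax7, Myf5, Myod1 and Myog were not in the chow table, and whether they were among the tested genes cannot be read from it.

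Of 97 sarcomere and mature muscle genes 5 fell and 0 rose, 5.15% of the list beside 0.865% of all tested genes that fell. The authors' deposited table placed Pvalb, the calcium buffer of fast fibres, at -2.56 (approximate SE 0.61, adjusted p = 0.013) and Ankrd2, a stretch-responsive titin partner, at -1.59 (approximate SE 0.39, adjusted p = 0.0152). Ckm, the muscle creatine kinase, was at -1.50 (approximate SE 0.39, adjusted p = 0.0207). The myosin chaperone Unc45b was at -0.79 (approximate SE 0.20, adjusted p = 0.0186) and the reticulum enzyme Dhrs7c at -1.02 (approximate SE 0.27, adjusted p = 0.0211) in the authors' deposited table. Actc1, the cardiac actin that myoblasts also express, drew the most reads of all 322 genes at 11.67 log2 CPM and had a value of -0.73 at an adjusted p of 0.1, and the calcium channel subunit Cacng1 had -0.59 at 0.0875. Promoters of 5 of the 7 called muscle genes were searched for the E-box CAGCTG, the letters that myogenic factors bind, which read the same on both strands. Chrng and Ckm held it, 2 of 5, or 40%, against 18.3% of all genes with a promoter and 24.1% of the called lower and 24.3% of the called higher genes. The exact binomial 95% interval of that 40% ran from 5.27% to 85.3% and holds the other shares. No test was made. The matches shown are at chr1:87205644-87205673 (plus strand) for Chrng and chr7:19410844-19410873 (plus) for Ckm, with the E-box in capitals, because both genes are long-studied targets of myogenic factors.
Chrng: atatcctgggaaCAGCTGacaatgcagtgg
Ckm: cCAGCTGtcccccgccagctagactcagca
The E-boxes shown begin 155 and 249 bases before the start. The one shown for Chrng overlaps a match to the antioxidant response element described below. Chrng held another E-box, not shown, that begins 132 bases before the start.

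Markers of other cell types were among the genes that fell. Thy1, a surface protein of fibroblasts and other stromal cells, stood at -2.20 (approximate SE 0.41, adjusted p = 0.000313) in the authors' deposited table, at a mean abundance of 0.68 log2 CPM. Col1a2, a chain of type I collagen, fell by 1.50 (approximate SE 0.37, adjusted p = 0.0158), and its partner chain Col1a1 had -2.07 with an approximate standard error of 0.65 and an adjusted p of 0.0701. Thy1 and Col1a2 made 2 called of 21 fibroblast genes, 9.52% of the list beside 0.865% of all tested genes that fell. The wider matrix list of 79 genes had 3 lower and 0 higher, 3.8% beside the same 0.865%. Besides Col1a2 they were Fbln5, which assembles elastic fibres, at -1.33 (approximate SE 0.37, adjusted p = 0.0331), and the collagen crosslinking enzyme Loxl2 at -1.19 (approximate SE 0.35, adjusted p = 0.0475) in the authors' deposited table. Loxl2 was not listed over both diets. Col5a3 at -1.04 and the basement membrane protein Frem2 at 1.39 were listed at adjusted p-values of 0.0639 and 0.0766.

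Vascular genes did not all go one way. Of 24 endothelial genes 3 fell and 1 rose, 16.7% of the list beside 1.25% of all tested genes called. Cdh5 and Pecam1, the junction proteins that define endothelial cells, stood at -3.03 (approximate SE 0.75, adjusted p = 0.0158) and -2.25 (approximate SE 0.66, adjusted p = 0.0498) in the authors' deposited table, at 0.33 and 0.60 log2 CPM. Neither Cdh5 nor Pecam1 was listed over both diets. The sphingosine phosphate receptor S1pr1 was at -1.80 (approximate SE 0.35, adjusted p = 0.000703), while Podxl, a sialylated surface protein of vessels and podocytes, rose by 1.70 (approximate SE 0.40, adjusted p = 0.00911). Among 15 perivascular genes Mcam fell, at -0.79 (approximate SE 0.23, adjusted p = 0.0441) in the authors' deposited table, and 0 rose. Over both diets Mcam was at -0.56 (adjusted p = 0.0151) while the pericyte marker Rgs5 was at 0.94 (adjusted p = 0.00718), and Cspg4 had 0.68 at an adjusted p of 0.0806. The lists for leukocytes and macrophages (26 genes) and for adipocytes (25 genes) had 0 members in the chow table.

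The satellite cell label was set beside cell type markers as far as the tables allow. Of 9 satellite cell markers 4 had a listed value over both diets, Chrna1, Itga7, Ncam1 and Cdh15, with mean abundances from 9.10 to 11.11 log2 CPM. Of the other markers with any listed value, Acta2 was at 10.10 log2 CPM and is also expressed by cultured myoblasts, Col1a2 and Rgs5 were at 6.07 and 6.00, and Col1a1, Cspg4 and Mcam lay between 3.80 and 4.47. Dcn, Mrc1, Itgam, Thy1, Pecam1 and Cdh5 lay between 0.33 and 2.08. Over both diets the mean log2 fold changes of these markers did not all have 1 sign. Besides Rgs5 and Cspg4, given above, every other listed marker was below 0. Acta2 fell by 0.93 (adjusted p = 0.00223), Chrna1 by 0.40 (adjusted p = 0.0175), Ncam1 by 0.41 (adjusted p = 0.0311) and Cdh15 by 0.46 (adjusted p = 0.00473), and Itga7 had -0.26 at 0.0941. The leukocyte markers Mrc1 and Itgam fell by 0.59 (adjusted p = 0.0323) and 0.79 (adjusted p = 0.0375), and the fibroblast marker Dcn by 1.29 (adjusted p = 0.0238). Genes of muscle differentiation were abundant as well, with Actc1 at 11.67, Chrng at 8.97, Ckm at 6.71 and Gm7325 at 6.70 log2 CPM. The marker levels therefore do not tell satellite cells from differentiating myoblasts. CPM is not corrected for gene length, so these levels do not rank the genes. How far fibroblast, endothelial or perivascular RNA contributed to the lower values of the matrix and muscle genes was not tested, and in a bulk sample fewer cells of a type and less RNA per cell cannot be told apart.

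**Figure D3:**
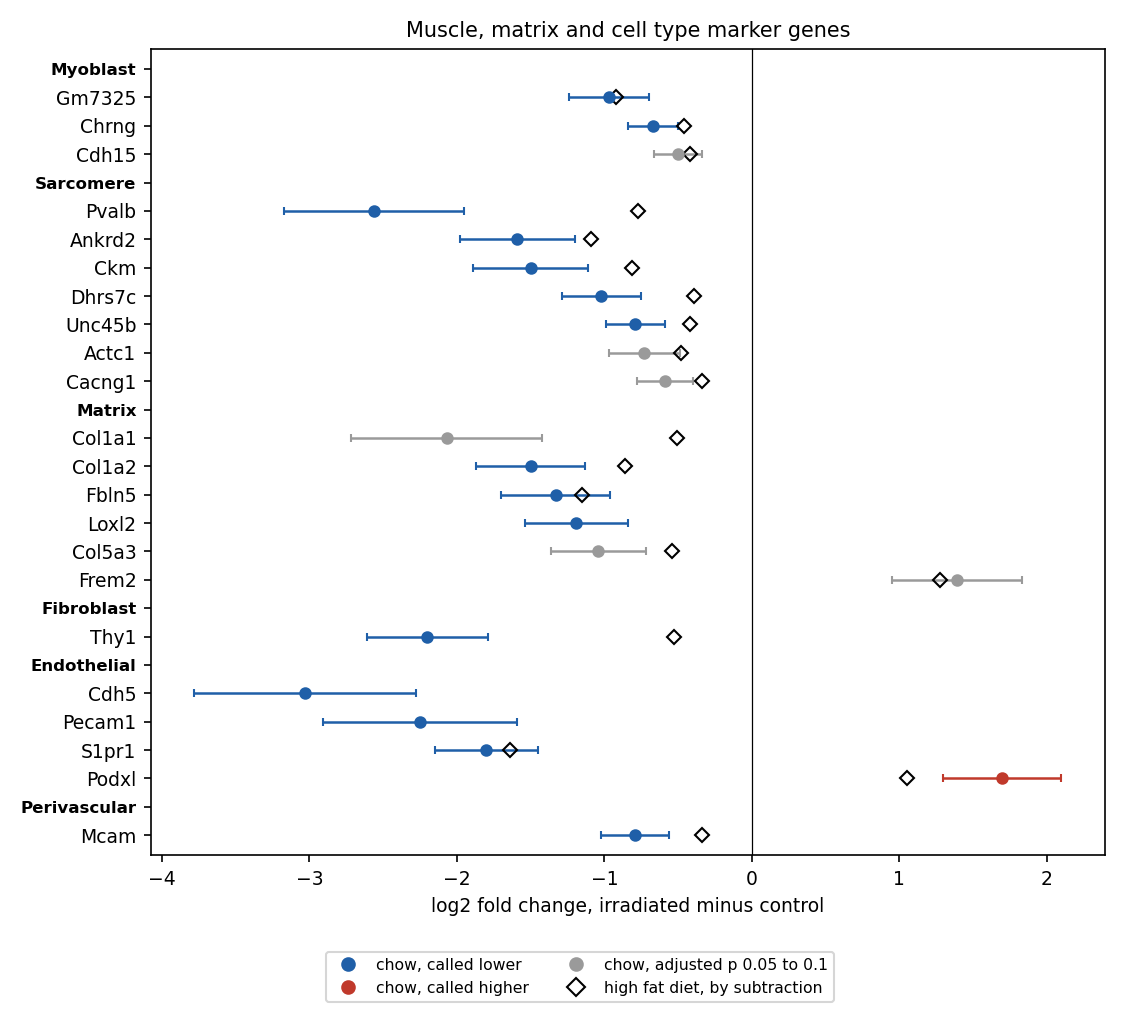
Listed muscle, matrix and cell type marker genes, with the log2 fold change on chow (circles, bars of 1 approximate standard error, blue called lower, red called higher, grey adjusted p 0.05 to 0.1) and on the high fat diet by subtraction (diamonds, absent where no value over both diets was listed). Frem2 and Podxl are the circles right of 0, and Cdh5 at -3.03 is the lowest.

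Genes on the neuronal list made the largest called group of any list on the higher side. Of 59 genes for the neuronal cytoskeleton and synapse 8 rose and 0 fell, with a median of 1.74. That is 13.6% of the list, beside 0.388% of all tested genes that rose. The list was chosen with earlier results of these data known, so both counts depend on its membership and were not tested. Dcx, a microtubule protein of migrating neurons, rose by 2.14 (approximate SE 0.52, adjusted p = 0.0133) in the authors' deposited table. Capn6, a calpain without protease activity that stabilises microtubules, lies 28428 bases from Dcx on the X chromosome and rose by 2.09 (approximate SE 0.57, adjusted p = 0.0288). Stmn2, a tubulin-binding protein of growing axons, rose by 1.71 (approximate SE 0.42, adjusted p = 0.0139) in the authors' deposited table. Other members act at the synapse or in axon guidance. Cadps, which primes dense-core vesicles, was at 2.47 (approximate SE 0.63) and the active zone scaffold Pclo at 1.34 (approximate SE 0.33) in the authors' deposited table. The Slit receptor Robo2 was at 1.75 (approximate SE 0.45) and the semaphorin receptor Plxnb1 at 0.74 (approximate SE 0.20). Abundance of the 8 genes ran from 0.21 log2 CPM for Robo2 to 5.40 for Plxnb1. C1ql3, a secreted synapse organiser, had 2.32 at an adjusted p of 0.0685. Outside the list, genes also known from neurons went both ways, and they were not counted. Among several that were lower, picked after their values were seen, the tubulin Tubb2a was at -0.81 (approximate SE 0.21, adjusted p = 0.0214). Its relative Tubb2b had -0.56 at an adjusted p of 0.0553 in the authors' deposited table. The sensory neuron channel Scn10a also fell and is given below, as is Cbln2, a synapse organiser that rose. On the glial list of 13 genes Mbp, a myelin protein, rose by 1.52 (approximate SE 0.44) at an adjusted p of 0.0498, the neurotrophin receptor Ngfr had 1.30 at 0.0838, and the defining Schwann cell markers Sox10 and S100b were not listed on chow or over both diets. What part nerve-derived RNA has in these values was not tested.

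**Figure D4:**
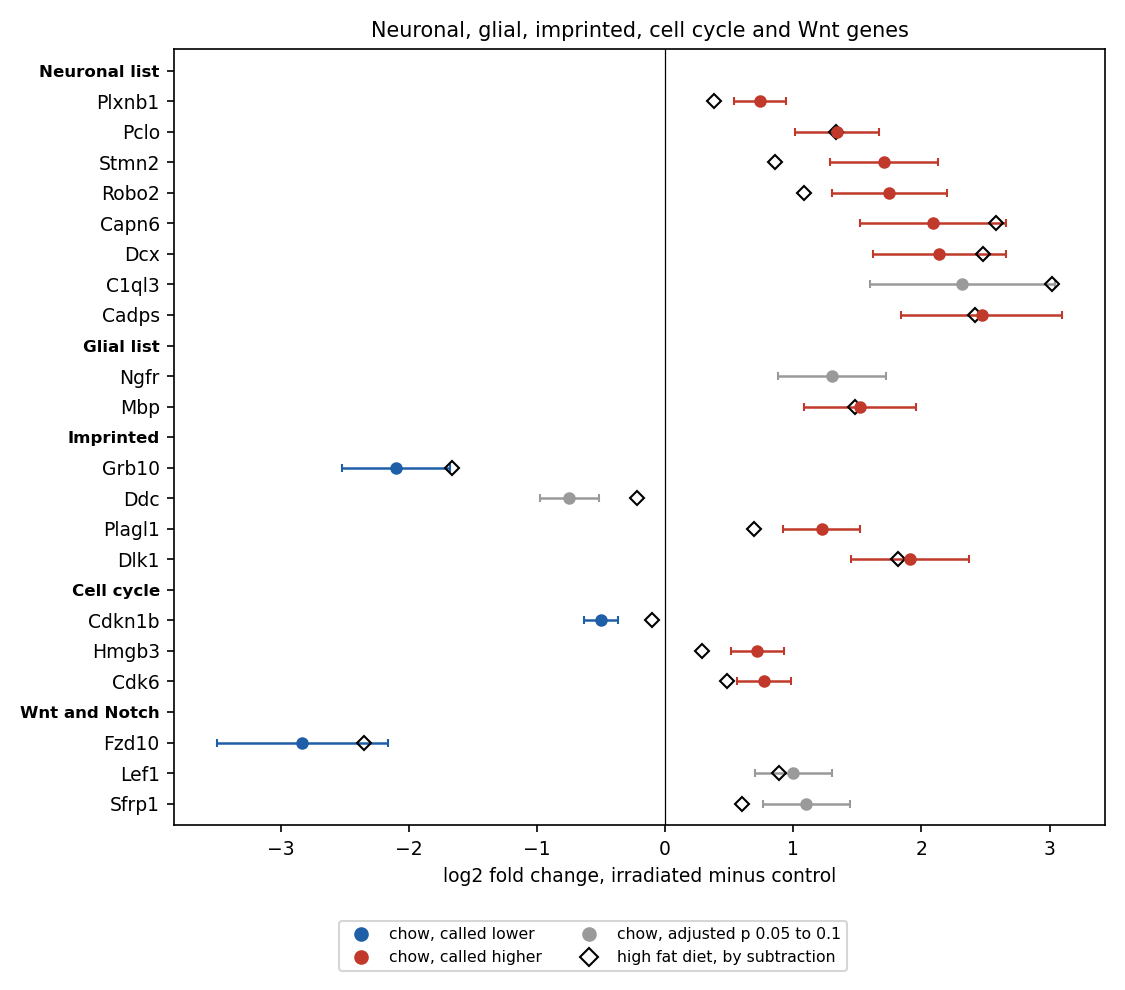
Named genes of the neuronal, glial, imprinted, cell cycle, and Wnt and Notch lists, with the log2 fold change on chow (circles, bars of 1 approximate standard error, red called higher, blue called lower, grey adjusted p 0.05 to 0.1) and on the high fat diet by subtraction (diamonds). The 8 neuronal circles drawn, 7 red and 1 grey, lie right of 0, from 0.74 for Plxnb1 to 2.47 for Cadps.

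The DNA damage lists had few genes in the chow table, where genes of any kind were few. Of 38 p53 target and checkpoint genes 0 were called by the edgeR test in the authors' deposited table, and Gdf15 was the single member listed. Of 48 DNA repair genes 0 were listed. Over all tested genes 2.6% were listed and 1.25% called. In lists of this size such counts do not set these genes apart. The table holds no unadjusted p-values for genes above its limit, so no looser count can be given. Of 67 cell cycle and replication genes 2 rose and 1 fell, 4.48% of the list. Cdk6, the kinase that opens G1, rose by 0.77 (approximate SE 0.21, adjusted p = 0.0308) and the chromatin protein Hmgb3 by 0.72 (approximate SE 0.21, adjusted p = 0.0451), while the kinase inhibitor Cdkn1b fell by 0.50 (approximate SE 0.13, adjusted p = 0.023) in the authors' deposited table. Cyclins, replication proteins and mitotic genes of the list were not in the chow table.

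Signalling and adhesion genes changed singly. Over all tested genes 1.25% were called, 0.388% higher and 0.865% lower. Of 123 integrins and cadherins 1 rose and 2 fell, 2.44% of the list. Itga4, the alpha chain of the VCAM1 receptor, rose 2.56-fold, at 1.35 (approximate SE 0.34, adjusted p = 0.0169) and 6.89 log2 CPM. Itgb7, which can pair with it, fell by 2.78 (approximate SE 0.59, adjusted p = 0.00203) at 0.76 log2 CPM in the authors' deposited table. Cdh5, given above, fell as well. Cdh17 had 1.19 at an adjusted p of 0.0666. Of 76 Wnt and Notch genes 1 was called, 1.32% of the list, close to the 1.25% of all tested genes. This was the receptor Fzd10, which fell by 2.83 (approximate SE 0.67, adjusted p = 0.0104) in the authors' deposited table. The nuclear effector Lef1 and the secreted antagonist Sfrp1 were listed at 1.0 and 1.10 with adjusted p-values of 0.0573 and 0.0647. Of 144 growth factor and receptor genes, selected by symbol prefix, 2 fell and 1 rose, 2.08%. Besides Fgf21, Igfbp6, a binding protein with a preference for IGF2, fell by 0.63 (approximate SE 0.18). Igf2bp3, an RNA-binding protein of fetal tissue and no growth factor, rose by 0.89 (approximate SE 0.17, adjusted p = 0.000703), which gave it the lowest p-value on the higher side of the authors' deposited table. Tgfbi at 2.11 and Fgfbp1 at -0.84 were not called. Of 189 cytokine and chemokine genes the membrane-bound chemokine Cx3cl1 rose by 1.07 (approximate SE 0.30, adjusted p = 0.0351), 0.529% of the list, and the interleukin 33 receptor Il1rl1 had -3.13 with an approximate standard error of 0.95 and an adjusted p of 0.0596. Of 249 ion channel genes 3 were called, 1.2%, close to the 1.25% of all tested genes. Among them were Chrng, described above, and the sensory neuron sodium channel Scn10a at -0.95 (approximate SE 0.27, adjusted p = 0.0388).

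Peroxidases and haem oxygenase were among the genes that fell. Of 39 redox and heat stress genes 3 fell and 0 rose, 7.69% of the list beside 0.865% of all tested genes that fell. Hmox1, which degrades haem, was at -0.81 (approximate SE 0.23, adjusted p = 0.0474), the secreted peroxidase Gpx3 at -0.83 (approximate SE 0.22, adjusted p = 0.0285) and Gpx4, which reduces lipid peroxides in membranes, at -0.66 (approximate SE 0.18, adjusted p = 0.0325) in the authors' deposited table. The antioxidant response element was searched as TGACNNNGC on both strands. It was in 0 of the 2 genes of this set with a promoter, in 18.1% of the called lower genes and in 14% of all genes with a promoter. Of 32 cholesterol and fatty acid genes the desaturase family member Fads3 fell by 0.74 (approximate SE 0.19, adjusted p = 0.0177). Of 98 oxidative phosphorylation genes Atp5e, a subunit of the ATP synthase, was listed at -0.50 with an adjusted p of 0.0906 and 0 were called. Among 51 chromatin genes the glycosylase Tdg at 0.35, the corepressor Bcor at 0.37 and the deacetylase Sirt1 at 0.44 were listed without being called, all above 0 in the authors' deposited table. Ribosomal protein genes (85), interferon response genes (28) and Hox genes (39) had 0 members listed. In all 60 of the 155 called genes belonged to at least 1 of the 31 lists, and 9 lists had 0 called.

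**Figure D5:**
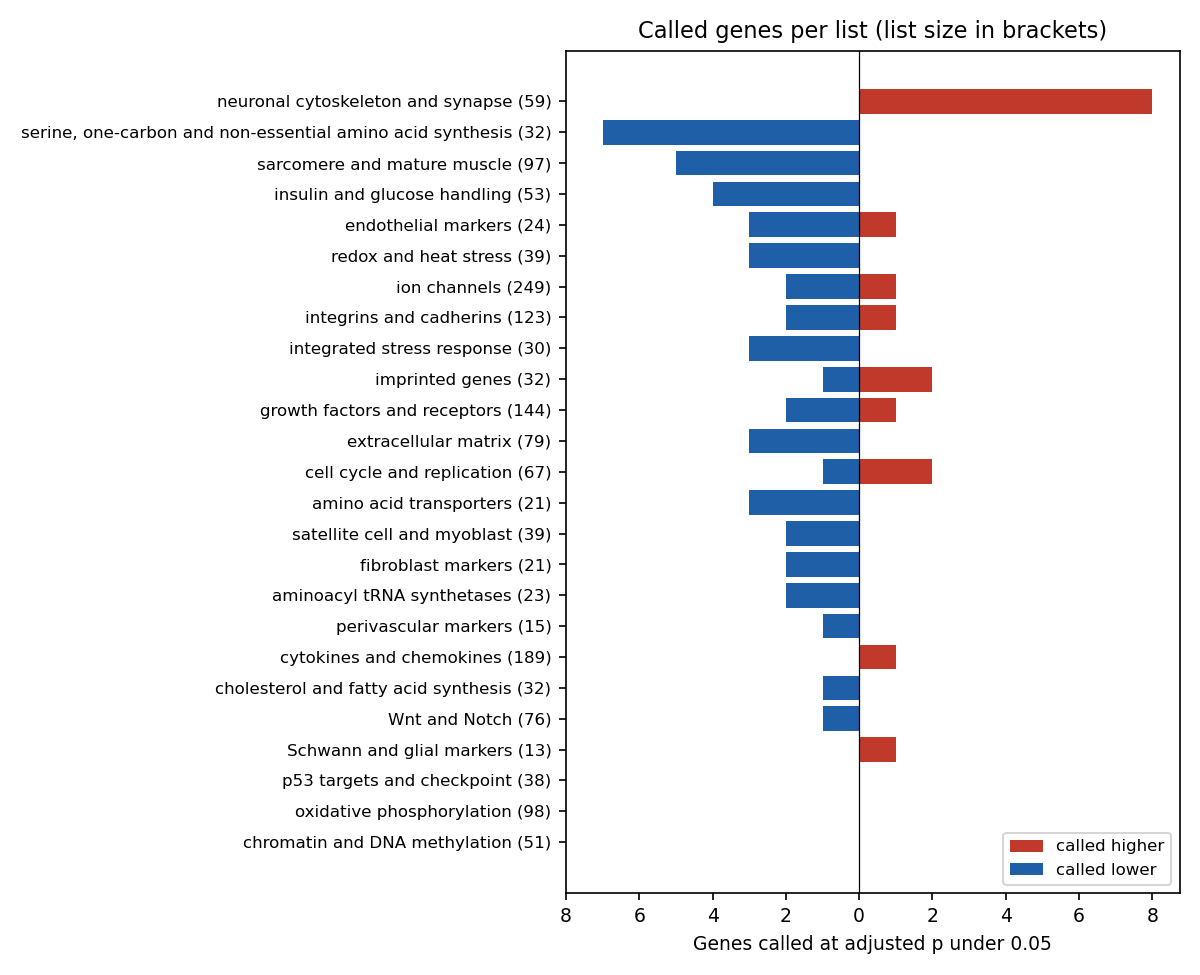
Number of genes called higher (red, right) and lower (blue, left) on chow for each list with a listed member, with the size of the list in brackets. The neuronal list has 8 genes to the right and the serine, folate and amino acid list has 7 to the left.

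Outside the lists, single genes marked both ends of the table. Crabp1, which binds retinoic acid in the cytosol, fell by 3.07 (approximate SE 0.79, adjusted p = 0.017), and Derl3, of the machinery that draws misfolded proteins out of the endoplasmic reticulum, by 2.05 (approximate SE 0.47, adjusted p = 0.00631) in the authors' deposited table. Extl1, a glycosyltransferase of heparan sulphate, was at -1.55, Pappa2, a protease that frees IGF from its binding proteins, at -1.49, the exchange factor Arhgef16 at -1.75 and the chloride channel Best1 at -1.69. The lowest value of all belonged to the scarce transcript 5930412G12Rik, at -3.43 (approximate SE 0.62, adjusted p = 0.000313) and 0.94 log2 CPM in the authors' deposited table. Fut1, a fucosyltransferase, and Cyp2d22, a cytochrome P450, were also scarce, at -2.24 and -2.14. On the higher side Sost, the secreted Wnt antagonist of bone, led at 2.59 (approximate SE 0.69, adjusted p = 0.0257), and Tbx20, a transcription factor of the embryonic heart, stood at 2.02 (approximate SE 0.49, adjusted p = 0.0139) in the authors' deposited table. Palmd rose by 1.96 (approximate SE 0.42, adjusted p = 0.0022), the transcriptional coregulator Cited1 by 1.49, the Rac regulator Chn2 by 1.41 and the phospholipid flippase Atp8a1 by 0.75. Dbh, the enzyme that makes noradrenaline, rose by 1.29, Cbln2, a synapse organiser, by 1.99, and Epb4.1l4a, Soga3 and Strip2 by 1.50, 1.35 and 0.90. Of the called genes that drew the most reads, which included Phgdh, Chrng, Psat1, Gars, Akt2, Fads3 and Slc7a5, the other members were the mitochondrial membrane protein Ghitm at -0.52, the aldose reductase Akr1b3 at -0.76 and the actin-binding protein Aif1l at -0.72 in the authors' deposited table, all lower. The threshold of 0.05 fell between Vstm2b at -1.43 and Mbp at 1.52, both at an adjusted p of 0.0498, and Mamstr at -0.52 and Smim20 at -0.67, both at 0.0508. The last genes inside the limit of 0.1 were Actc1 and Igsf1, the latter at 1.96.

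The same genes were then read on the high fat diet. The effect there could be obtained for 309 of the 322 genes, by subtracting the chow value from the sum over both diets in the authors' deposited table. For 13 genes that were also in the authors' deposited table for the high fat diet, the subtraction met the deposited value with a largest deviation of 3.11e-15. The genes were chosen for passing on chow, a choice that by itself favours smaller values elsewhere, so the sizes are a description. A value also required the gene to be listed over both diets, in a sum that includes chow. That listing favours values of the same sign on both diets. Fgf21 was at -1.73 on the high fat diet and Grb10 at -1.66, against -2.84 and -2.10 on chow. The 15 called genes of the 4 stress and amino acid lists lay between -1.73 and -0.24 on the high fat diet, with the 12 on the amino acid lists between -1.01 and -0.24, the 7 called muscle genes between -1.09 and -0.39, and the 8 neuronal genes between 0.38 and 2.58. The difference between the diets was tested for the 309 genes from the approximate standard error of the sum, with Benjamini-Hochberg adjustment, and 0 passed 0.05. The chow values by which the genes were chosen enter this difference, so its p-values are a description too. Genes whose effects on the 2 diets offset each other tend to be missing from the 309, so that count says nothing about them. The lowest adjusted p was 0.599, and 13 genes had an unadjusted p under 0.05. Thy1, at -2.20 on chow and -0.53 on the high fat diet, differed by -1.67 (approximate SE 0.56), and Pvalb, at -2.56 and -0.77, by -1.79 (approximate SE 0.84). Fgf21 differed by -1.11 (approximate SE 0.72), and Dcx by -0.33 (approximate SE 0.74), less than its error. Missing the threshold does not show that the diets act alike. In the authors' deposited table for the high fat diet 8 genes passed 0.05, 0.0647% of those tested, and 5 of them were called on chow, 62.5% of the shorter list and 3.23% of the longer. Of the 155 called genes 151 also passed over both diets, where 827 genes passed, 6.68% of those tested, in a comparison that shares the chow libraries. By direction, 3.05% of the tested genes rose and 3.64% fell over both diets. There 12 of the 32 genes of serine, folate and amino acid synthesis fell and 0 rose, while 4 of the 21 amino acid transporters fell and 1 rose. Of the sarcomere and mature muscle genes 12 fell and 3 rose, and of the neuronal genes 14 rose and 1 fell. Of the p53 target and checkpoint genes 4 fell and 0 rose, and of the DNA repair genes 3 rose and 0 fell. Cdh5, Pecam1, Loxl2 and Epb4.1l4a are the called genes with no listed value over both diets. As many genes were tested there as on chow, 12371, so these genes did not pass over both diets.

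Some listed genes were neighbours. Within 100000 bases of each other lay 25 pairs of adjacent listed genes in mm10, and in 23 of them both values had the same sign. As 197 of the 322 listed genes were lower, many pairs share a sign at any distance. How many such pairs other genes would give was not counted. Fgf21 and Fut1 lie 2116 bases apart on chromosome 7 and stood at -2.84 and -2.24 in the authors' deposited table. 5930412G12Rik and Fzd10, at -3.43 and -2.83, lie 157 bases apart on chromosome 5. Fth1, Best1, Rab3il1 and Fads3 follow each other on chromosome 19 with values from -1.69 to -0.66, and Fth1 was not called. Thy1 and Mcam, markers of different cell types above, lie 85983 bases apart on chromosome 9. Cdh5 and Bean1, 26011 bases apart, had opposite signs, at -3.03 and 1.20. No spans overlapped, the strand setting of the counting is not stated in these sources, and no test of neighbourhood was made. The pairs Tubb2a and Tubb2b and Akr1b3 and Akr1b10, and the single genes Fth1, Gstm4, Tmsb10 and Hmgb3, have closely similar relatives or pseudogenes, so their values are uncertain where reads were shared with those copies.

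DNA methylation of satellite cells was read beside the RNA in the authors' deposited table of reduced representation bisulfite sequencing for radiation. The bisulfite libraries came from irradiated and control mice on both diets. The contrast is labelled by radiation alone, so it is not a comparison on chow like that of the RNA. Regions within 1 kb of a start were listed for 30 of the 155 called genes, 19.4%, with 12 of 48 for genes that rose (25%) and 18 of 107 for genes that fell (16.8%). Among 1386 genes listed over both diets and not on chow the share was 29.1%. Those genes were likewise chosen by their RNA. No share over all tested genes was obtained, so these shares cannot be read as high or low. The header of the bisulfite table leaves group 1 and group 2 without names, so no direction can be given to a treatment. The 30 genes had 63 regions, 31 with a difference above 0 and 32 below 0. Differences were mostly either large or near 0. In 29 regions they passed 25 percentage points in either direction, with 34.6 the largest, and in 28 they were under 5 points. Cdkn1b shows the pattern within a few bases. At chr6:134920272-134920272 the difference was -34.6 points, and at chr6:134920274-134920274 it was 0.1 points. Gars and Gpx4 likewise held values near 34 points in size beside values near 0. Slc7a5 had a region with 21.6 points over its start, and Fgf21, Grb10, Psat1, Mthfd2 and Asns had no listed region within 1 kb.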

How the data were processed

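Per the labels' protocols, RNA was extracted with TRIzol or an AllPrep kit, and which library had which is not given, so the kit and the group cannot be told apart. Libraries were stranded and depleted of ribosomal RNA. The submitters' processing notes name build mm10, Trim Galore 0.4.0, TopHat2, featureCounts, edgeR and CASAVA 1.8.2 for RNA, and Bismark 0.14.4 and Bowtie2 2.2.6 and Trim Galore 0.4.0 and cutadapt 1.8.3 for bisulfite libraries. Per the file headers, the authors deposited a log2 fold change and a mean log2 CPM, a likelihood ratio (a score with no fixed range), and a p-value with its adjusted value for each gene. The bisulfite table that the authors deposited gives a methylation difference as a score from group 1 minus group 2, and a p-value that was not used for calls. The number of columns with values of single samples was 0, so no refit, no left-out library and no check of how libraries cluster could be made. Multiplying p by rank over adjusted p gave 12371 tested genes. The value over both diets was the sum of the diets, and it was divided by 2 where a mean is given. Genes named were the 15 highest and 15 lowest called at 1 log2 CPM or more, the 10 lowest p-values a side, the 5 largest a side of the scarcer called genes, the 10 called genes with most reads, genes at the thresholds, and every listed member of a list. How many list members were tested is not given by the table, so shares are of the whole list. Members and lists were chosen with earlier results of these data known, so no list was tested. The number of tested genes, the calls, the approximate standard error and the diet difference were tried on simulated data. The simulated diet difference did not include the choice of genes by their listing. List counts, promoter searches, neighbours and bisulfite regions were not simulated. Python 3.11.15 with pandas 2.3.3 and scipy 1.17.1 was used. Some genes that the rule or the lists take in are counted but not reported here by name.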

Additional observations from a re-analysis of the deposited data

How the results depend on the processing

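Every value rests on the authors' fit, and its choices could not be varied. Leaving out libraries was not run, because no values of single libraries were used. No paired analysis was possible because the columns carry no sample or replicate. Of genes called higher, 125 were listed at a threshold of 0.1, 5 passed 0.01, 2 passed Bonferroni adjustment and 26 had a log2 size of at least 1, against 48. Of genes called lower, the numbers were 197, 19, 14 and 47 against 107. A minimum of 1 log2 CPM left 45 higher and 93 lower, and keeping 1 row per symbol left 48 and 107. Of the counts per list and direction, a threshold of 0.1 moved 17 and kept 45 within 1.5 times, and the abundance minimum moved 4 and kept 58. Of the named genes with a value averaged over both diets, all 80 that were called on chow passed there too, and 27 of 31 that were not called passed. That value exists only for genes listed over both diets and shares the chow libraries, so passing was favoured beforehand. The called genes Cdh5, Pecam1, Loxl2 and Epb4.1l4a are not in this count. They were not listed over both diets, where 12371 genes were tested as well, so they did not pass there. Under Bonferroni adjustment 13 named called genes passed and 71 did not. No named gene with a value over both diets changed its sign there, which the listing also favours. Bonferroni adjustment leaves signs as they are. With only the 250 bases before the start, promoter shares of the called list members stayed the same. The shares beside them were lower, at 3.91% (response element of C/EBP-ATF), 11.5% (antioxidant) and 14.7% (E-box) of all genes with a promoter. The E-box share went to 16.2% of called higher and 19.3% of called lower genes. The C/EBP-ATF share of called higher genes went from 5.41% to 2.7%, and the antioxidant share of called lower genes to 15.7%.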

Other observations

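Some called genes share a known function that no list covered. They were picked after their values were seen and carry no test beyond their own. Genes of the endoplasmic reticulum changed in both directions in the authors' deposited table. Dnajb11, a cochaperone of the lumen, was at -0.67 (approximate SE 0.19) on chow and -0.66 on the high fat diet, and Creld1, a membrane protein of the same compartment, was at -0.88 (approximate SE 0.19) and -0.51. The peptidase Erap1 and the mannosyltransferase Tmtc2, of the same compartment, rose by 0.74 (approximate SE 0.21) and 0.82 (approximate SE 0.21). Gatm, which makes the precursor of creatine, was at -0.74 (approximate SE 0.21) beside Ckm. Called genes of lipid handling had both signs as well. The endothelial lipase Lipg was at -1.30 (approximate SE 0.35), the choline phosphotransferase Chpt1 at -0.80 (approximate SE 0.20), and Fitm1, which promotes lipid droplets, at -0.72 (approximate SE 0.18) in the authors' deposited table. The lipase Abhd2 rose by 0.65 (approximate SE 0.18), as did the flippase Atp8a1, given above.

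Some transcriptional regulators rose. Gata4, a factor of heart and gut endoderm, was at 1.16 (approximate SE 0.29) on chow and 1.06 on the high fat diet, at 2.16 log2 CPM in the authors' deposited table. Klf11 and the nuclear receptor corepressor Nrip1 rose by 0.55 (approximate SE 0.14) and 0.48 (approximate SE 0.12). Ephrin A5 (Efna5) rose by 0.94 (approximate SE 0.26) and the receptor phosphatase Ptprm by 0.83 (approximate SE 0.23), both of them cell contact proteins. The class IV histone deacetylase Hdac11 fell by 0.78 (approximate SE 0.19) in the authors' deposited table.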
